A study of Mus musculus with 6 samples.

Results

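The renin-angiotensin system was followed through 8 of its genes in cortical kidney cells of WT mice and *Prdm16* KO mice: *Agt*, *Ren1*, *Ace*, *Agtr1a*, *Agtr1b*, *Enpep*, *Mme* and *Atp6ap2*. They were chosen by symbol, out of 26903 genes listed in any library, and not by a threshold on measured values. Earlier results of these data were known when they were chosen. Rows for 7 of the 8 were found in every library. *Agtr1b* had no row in KO replicate 2 and was taken as 0 there.

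Angiotensinogen, the product of *Agt*, is cut by renin (*Ren1*) to angiotensin I, which the converting enzyme ACE (*Ace*) turns into angiotensin II. Angiotensin II acts through the AT1 receptors, encoded in the mouse by *Agtr1a* and *Agtr1b*, to constrict vessels and retain salt. Aminopeptidase A (*Enpep*) trims angiotensin II to angiotensin III, neprilysin (*Mme*) degrades angiotensin I and other peptides, and the product of *Atp6ap2* binds renin and prorenin and is also an accessory protein of the vacuolar proton pump. In the kidney, renin is made by juxtaglomerular cells in the wall of the arteriole that feeds the glomerulus, and the macula densa cells of the nearby tubule regulate its release.

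Single cells were prepared by enzymatic digestion from renal cortex of male-labelled C57BL/6J mice aged 9 months, 3 WT and 3 carrying a global *Prdm16* deletion that shifts the reading frame, with 1 BD Rhapsody library per mouse. All cells of the KO mice lack the intact gene, so no cell class serves as an untouched control within them. The genes lie in GRCm38 at chr1:133350510-133360325 (*Ren1*), chr11:105967945-105989964 (*Ace*), chr8:124556534-124569706 (*Agt*), chr13:30336441-30382867 (*Agtr1a*), chr3:20314473-20367177 (*Agtr1b*), chr3:129269175-129332720 (*Enpep*), chr3:63241537-63386030 (*Mme*) and chrX:12587801-12617049 (*Atp6ap2*). The values are sums over whole genes and do not separate exons or isoforms.

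Of 69056 barcodes with 500 to 60000 UMIs and 200 to 8000 genes, 28488 cells had at most 50% mitochondrial UMIs and were not among the 6% with the highest doublet score of their library. Each library kept 3538 to 6276 cells and 23107708 to 35366031 UMIs, and no pair of libraries shared more than 2 cell barcodes. Marker genes gave 14 classes that had 10 or more cells in each of the libraries, of which 1, led by *Aqp6* and *Slc4a1*, stayed unnamed (unnamed 15). *Prdm16* itself was at 32.4, 26.7 and 27.1 CPM (UMIs of a gene per 1000000 UMIs) in the WT libraries and 21.0, 24.9 and 23.4 CPM in the KO libraries. Counting the gene's UMIs cannot check a frameshift deletion. WT replicate 2 and KO replicate 1 carried *Xist* at 297 and 306 CPM against at most 0.216 CPM in the other 4 libraries, although all mice are labelled male. The results that rest on these 2 libraries are given with and without them.

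Most of the genes were concentrated in 1 or 2 cell classes, while *Atp6ap2* was found in all 14. As a measure of free RNA, the level of each gene in barcodes with 20 to 100 UMIs was set beside its level in cells. *Ren1*, *Ace* and *Agt* lay above their library's free RNA level in all 6 libraries in 1 class each, *Enpep* in 2 classes, *Agtr1a* in 3, and *Mme* and *Atp6ap2* in 5. Neighbouring classes in the order of levels were compared over the 6 mice with a two-sided exact paired permutation test, whose smallest p is 0.031. Over the 78 neighbour pairs compared, the smallest adjusted p was 0.188, so no step in the order passed the threshold after adjustment, and only the direction in each mouse can be given.

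**Figure D1:**
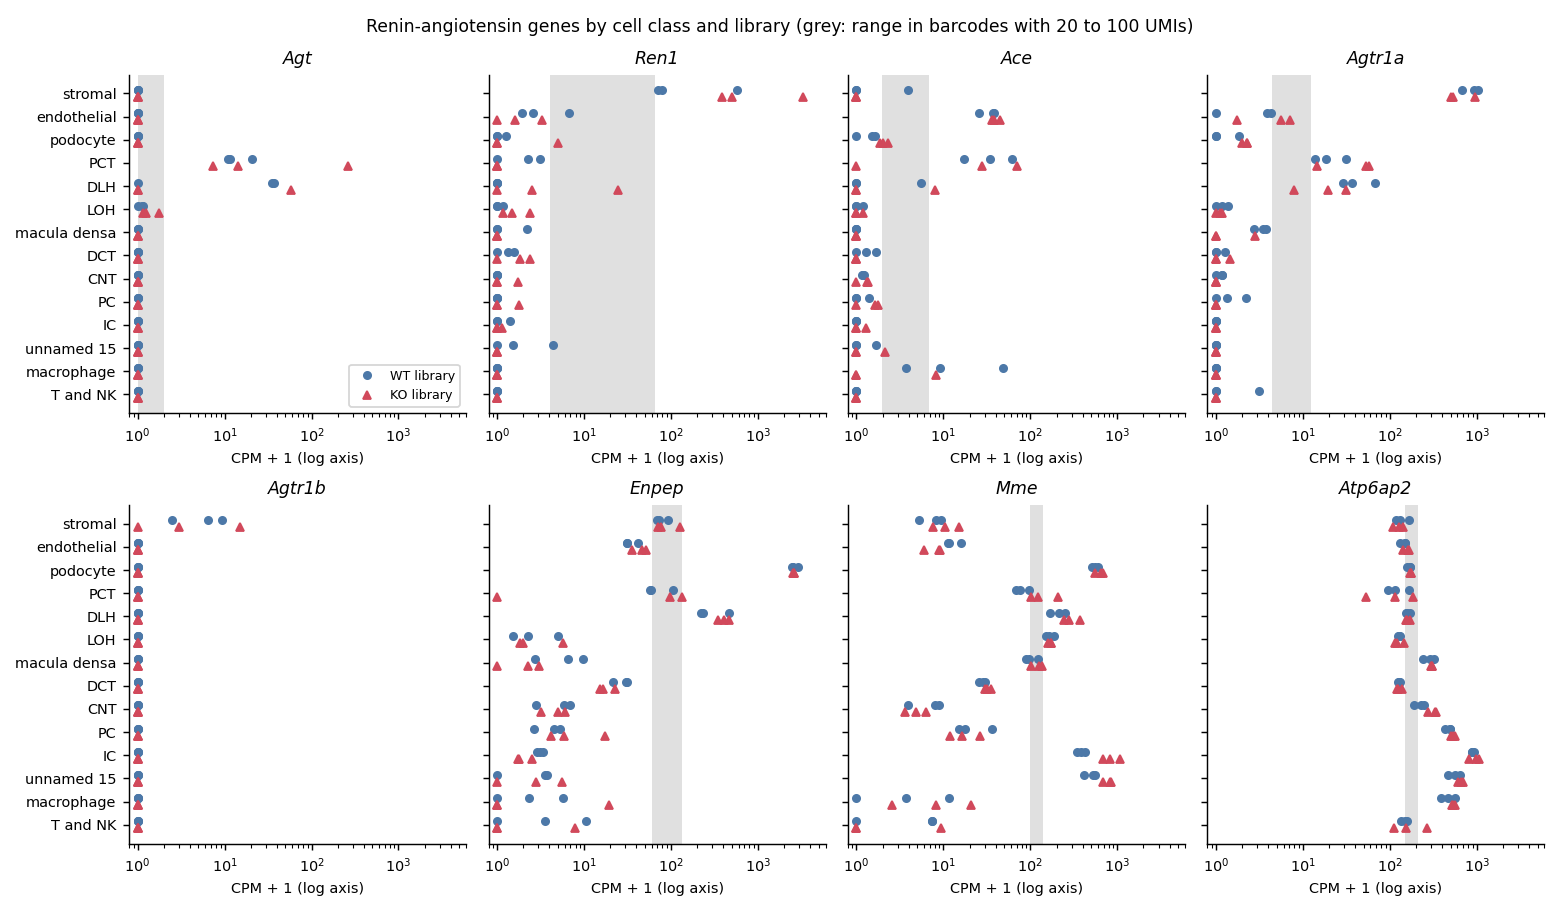
Level of each gene (CPM + 1, log axis) in 14 cell classes; circles are the 3 WT and triangles the 3 KO libraries, and the grey band spans the level in barcodes with 20 to 100 UMIs over the 6 libraries. *Agtr1a* and *Ren1* stand to the right of the band in stromal cells, *Enpep* in podocytes, and *Mme* in IC, podocytes and unnamed 15, while *Atp6ap2* is spread over all classes.

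*Agt*, the substrate of the whole chain, was barely detected, with 86 UMIs in all retained cells. Of these, 38 UMIs came from cells of the proximal convoluted tubule (PCT) and 9 from the ascending limb of the loop of Henle (LOH). A further 39 came from cells named as its descending limb (DLH). The other 11 classes had no *Agt* UMI. DLH had 4 of its 6 listed markers raised and was led by *Fst*, *Gprc5a*, *Aqp1*, *Cp* and *Dkk3*. Whether it also held other cell types was not tested. In PCT the WT libraries were at 19.5, 10.02 and 10.6 CPM and the KO libraries at 259, 6.37 and 13.4 CPM. The highest of these values came from 5 UMIs in the 11 PCT cells of KO replicate 1, so the groups overlapped and no direction can be read. In DLH, WT replicate 2 and KO replicates 2 and 3 had no *Agt* UMI.

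*Ren1*, the enzyme that starts the chain, was almost wholly a stromal transcript, with 96.3% of its 2413 UMIs in stromal cells. Within the stromal class, a smooth muscle-like cluster (cluster 26), with all 5 of its listed smooth muscle markers raised, held 2296 of these UMIs, and the mesangial-like cluster 23 held 27. *Ren1* was in none of the cells of the macrophage and the T and NK classes. Stromal cells stood above DLH, the next class, in 6 of 6 mice.

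The level of *Ren1* depended on which cells were removed as doublets. After removal, stromal *Ren1* was at 69.8, 579 and 77.3 CPM in the WT libraries and at 3321, 388 and 504 CPM in the KO libraries. The groups overlapped through WT replicate 2, and KO replicate 1 stood far above all others. Without doublet removal the same class was at 629, 786 and 5001 CPM in the WT libraries and 3248, 3874 and 5932 CPM in the KO libraries. WT replicate 3 then stood among the KO libraries, and the groups overlapped again. The log2 fold change, KO over WT, was 2.54 (SE 0.75, edgeR adjusted p = 0.270) after removal and 1.05 (SE 0.59, edgeR adjusted p = 0.807) without it. Over all barcodes of a library, whatever their depth, *Ren1* was at 3.52, 6.36 and 21.8 CPM in the WT libraries and 33.0, 17.1 and 18.2 CPM in the KO libraries, where the two-sided exact permutation test gave p = 0.3 (the smallest p that 3 libraries against 3 can give is 0.1).

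With doublets removed, the stromal test of *Ren1* passed under some alternatives and failed under others. In the 4 libraries without *Xist* the log2 fold change was 2.64 (edgeR adjusted p = 2.5e-09). That fit rests on 33 and 28 stromal *Ren1* UMIs in WT and 117 and 107 in KO. Doublet removal had taken 88.9% and 98.2% of the *Ren1* UMIs of these WT libraries and 91.3% and 93.8% of those of these KO libraries. The change was 2.60 with the *Xist* libraries as a block (edgeR adjusted p = 5.7e-07). It was 4.33 without WT replicate 2 (edgeR adjusted p = 0.0130), against 0.86 without KO replicate 1 (edgeR adjusted p = 0.888). Without doublet removal, the block for *Xist* gave 1.24 (edgeR adjusted p = 0.603), and leaving out WT replicate 3 gave 2.68 (edgeR adjusted p = 0.00167). Over the 25 fits made, the stromal log2 fold change was above 0 each time, from 0.61 to 4.33, and 5 of the fits passed. In bulk sums of this kind, fewer renin cells and less *Ren1* per cell cannot be told apart, so the cells were also counted.

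Cells with at least 10 *Ren1* UMIs were rare in all libraries but KO replicate 1. Before doublet removal there were 6, 7 and 6 of them in the WT libraries and 47, 6 and 8 in the KO libraries. The removal took out 5, 2 and 5 of them in WT and 8, 4 and 6 in KO, while it took 6% of all cells in each library. All cells removed as doublets, *Ren1*-high or not, held 88.9%, 34.1% and 98.2% of the *Ren1* UMIs before removal in the WT libraries. In the KO libraries they held 16.0%, 91.3% and 93.8%. KO replicate 1 and WT replicate 2, the libraries that carry *Xist*, thus lost the smallest shares.

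The 30 removed cells had a median of 2378 UMIs (550.0 to 7933), and the 50 kept cells a median of 2964 (777 to 5735). Of the removed cells, 28 fell into the smooth muscle-like cluster when no cell was removed. Their *Ren1* median was 68 UMIs against 25.5 in the kept cells, and their highest 1089 against 315. Summed over the cells, stromal markers were at 9370 CPM in the removed and 27135 CPM in the kept cells, podocyte markers at 1546 and 740.2 CPM, and IC markers at 365 and 20.01 CPM. Whether the removed cells were doublets was not tested.

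The KO replicate 1 cells were many, and their median *Ren1* per cell was below that of every other library but WT replicate 2. Per cell with at least 10 *Ren1* UMIs, the median was 46.5, 17 and 288 UMIs in the WT libraries and 27, 55 and 110.5 UMIs in the KO libraries before removal. The highest cell had 126, 315 and 1040 UMIs in the WT libraries and 196, 612 and 1089 UMIs in the KO libraries. In the richest cell of WT replicate 3, *Ren1* made up 16.3% of all UMIs. After removal, such cells were 0.0467% ± 0.0445 of the retained cells of WT mice, against 0.243% ± 0.328 of those of KO mice (SD, n = 3 each, two-sided exact permutation p = 0.5). Without removal they were 0.122% ± 0.00888 and 0.352% ± 0.307 (two-sided exact permutation p = 0.1, with every KO library above every WT library). Without KO replicate 1 the difference after removal was 0.00646 percentage points, against 0.196 with it.

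**Figure D2:**
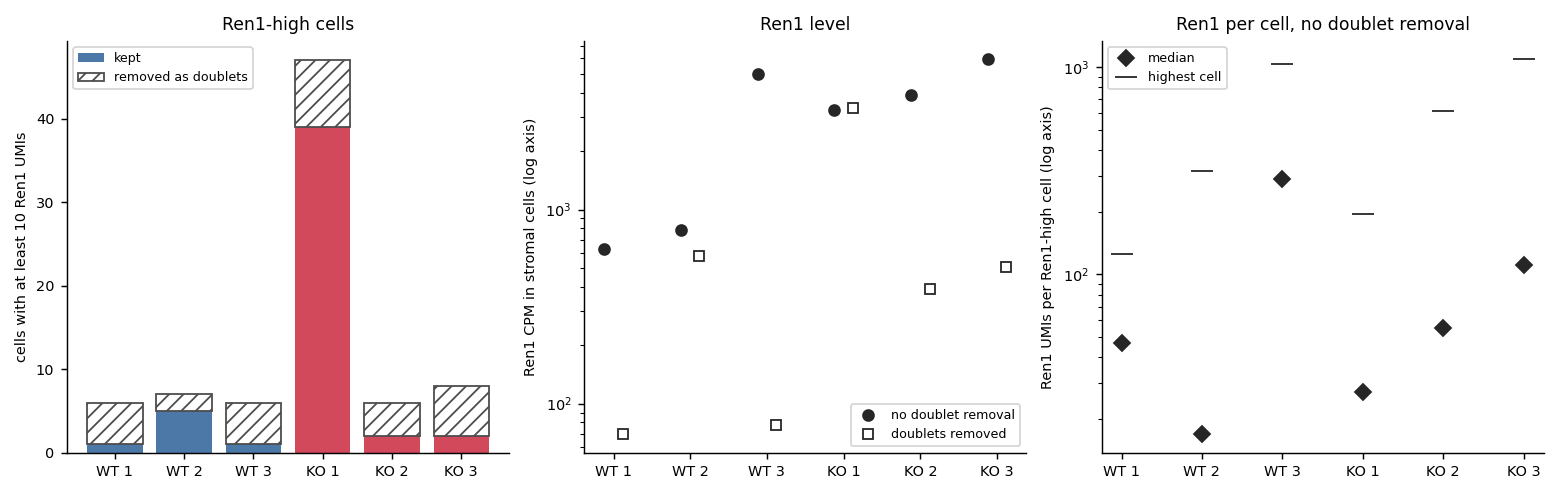
Left, number of cells with at least 10 *Ren1* UMIs per library (blue bars WT, red bars KO, hatched the cells removed as doublets); middle, *Ren1* CPM in stromal cells (log axis) before (filled circles) and after (open squares) doublet removal; right, median and highest *Ren1* UMIs per such cell (log axis). KO replicate 1 has 47 such cells against 6 to 8 elsewhere, and WT replicate 3 falls from 5001 to 77.3 CPM with the removal.

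Within the smooth muscle-like cluster, before doublet removal and with each library weighted alike, the cells with at least 10 *Ren1* UMIs differed from the other cells in known renin cell genes. *Akr1b7*, an aldo-keto reductase known from renin cells, was at 1356 CPM against 172 CPM and higher in 6 of 6 libraries. *Adrb1*, the beta-1 adrenergic receptor through which sympathetic nerves release renin, was at 215 CPM against 1.07 CPM, and *Adora1*, the adenosine A1 receptor, at 126 CPM against 3.00 CPM, both in 6 of 6 libraries. The contractile genes *Acta2* (3911 against 8636 CPM) and *Myh11* (1900 against 4333 CPM) were lower in the *Ren1*-high cells. They are given as a description, since *Ren1* chose the cells. *Agtr1a* was at 339 CPM in these cells and 187 CPM in the rest, higher in 4 of 6 libraries.

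*Ace* was mainly an endothelial gene, with 319 of its 536 UMIs in endothelial cells. The class was at 35.9, 24.4 and 37.0 CPM in the WT libraries and 36.9, 43.8 and 34.8 CPM in the KO libraries, against 0.980 to 5.76 CPM of free RNA. The groups overlapped, and edgeR gave a log2 fold change of 0.27 (SE 0.21, adjusted p = 0.793). Among the endothelial clusters, the arterial-like cluster 11, with 7 of 7 arterial markers raised, had 231 ± 75.3 CPM (SD, n = 6). The glomerular-like cluster 10, with 6 of 6 glomerular but also 6 of 7 arterial markers raised, had 49.2 ± 37.6 CPM. Cluster 12, with 6 of 7 arterial and 3 of 3 vasa recta markers raised, had 1.00 ± 1.93 CPM. The capillary-like cluster 16 had 1.86 ± 1.68 CPM. PCT, where ACE sits in the brush border, was at 34.4 ± 26.4 CPM, with no UMI in KO replicate 1, and did not differ in a steady direction from endothelial cells (4 of 6 mice).

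In the glomerular-like cluster, *Ace* was at 11.3, 13.7 and 41.1 CPM in WT and at 43.0, 79.0 and 107 CPM in KO. All KO libraries stood above all WT libraries, on 143 UMIs in all. The test of that cluster missed the threshold (log2 fold change 1.53, SE 0.48, edgeR adjusted p = 0.460), and it was looked at only after its values were seen.

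*Agtr1a*, the main AT1 receptor gene of the mouse, was at its highest in stromal cells, which held 91.9% of its 2166 UMIs. The WT libraries were at 1036, 925 and 679 CPM and the KO libraries at 532, 511 and 957 CPM. KO replicate 3 lay within the WT range and the other 2 KO libraries below it. In the edgeR test, the log2 fold change came to -0.37 (SE 0.23, adjusted p = 0.743).

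The receptor and renin were highest in different stromal cells. In the mesangial-like cluster, *Agtr1a* was at 1068 ± 213 CPM (SD, n = 6) and *Ren1* at 21.4 ± 19.1 CPM. In the smooth muscle-like cluster, *Agtr1a* was at 189.7 ± 124 CPM and *Ren1* at 2018 ± 2266 CPM. DLH (31.2 ± 20.4 CPM) and PCT (30.6 ± 19.7 CPM) came next for *Agtr1a* and did not differ in a steady direction (3 of 6 mice), but both stood above their library's free RNA, which was at 3.40 to 11.5 CPM. IC, macrophage and unnamed 15 cells had no *Agtr1a* UMI.

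*Agtr1b*, the other AT1 receptor gene, had 11 UMIs, all in the smooth muscle-like cluster. They were 4, 1 and 2 UMIs in the WT libraries and 1, 0 and 3 UMIs in the KO libraries. No low-UMI barcode held any. The coding parts of *Agtr1a* and *Agtr1b* are alike, and how reads that fit both were counted is not given in the sources used here.

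*Enpep*, which makes angiotensin III, was a podocyte gene in these libraries, with 96.8% of its 68481 UMIs. Podocytes, the cells that form the glomerular filter, were at 2898, 2484 and 2502 CPM in the WT libraries and 2587, 2587 and 2557 CPM in the KO libraries. The values of KO lay inside the range of WT. In the edgeR test, the log2 fold change came to -0.04 (SE 0.10, adjusted p = 0.872), and the 3 podocyte clusters lay between 2082 ± 201 and 2820 ± 146 CPM (SD, n = 6).

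The next class for *Enpep* was DLH, at 356 ± 109 CPM, below podocytes in 6 of 6 mice. Podocyte transcripts were also found there. *Nphs1*, which encodes nephrin, was at 119 to 609 CPM in DLH and at 1960 to 2681 CPM in podocytes. The 8 podocyte markers summed to 1128 to 4095 CPM in WT and 1687 to 3003 CPM in KO cells of DLH, none of them at 0. Their part in the *Enpep* level of DLH was not tested. The smooth muscle-like cluster was at 250.3 ± 67.1 CPM and capillary-like endothelial cells at 149 ± 44.6 CPM, with means above the free RNA range of 59.7 to 132 CPM, while the mean of PCT, 75.1 ± 47.2 CPM, lay within it.

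In cells of the distal convoluted tubule (DCT), *Enpep* was at 29.2, 30.3 and 20.7 CPM in the WT libraries and 15.5, 14.5 and 21.7 CPM in the KO libraries, all under the free RNA level. Its log2 fold change there was -0.64 (SE 0.23, edgeR adjusted p = 0.286). Without a limit on mitochondrial UMIs it was -1.07 (edgeR adjusted p = 0.00810).

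*Mme*, the gene for neprilysin, was the member whose level differed between the genotypes. It was expressed in several unrelated classes. Unnamed 15 was at 642 ± 175 CPM (SD, n = 6), intercalated cells (IC), the acid-base transporting cells of the collecting system, at 619.9 ± 289 CPM and podocytes at 592 ± 66.2 CPM. Unnamed 15 was above IC in 5 of 6 mice. IC was below podocytes in all 3 WT mice and above them in all 3 KO mice. DLH (253 ± 68.1 CPM) was below podocytes in 6 of 6 mice, and LOH was at 168 ± 11.9 CPM. Free RNA held 97.3 to 139.5 CPM of *Mme*, and the macula densa (111 ± 19.1 CPM) and PCT (111 ± 50.9 CPM) were at that level.

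In IC, *Mme* was at 422, 340.1 and 385 CPM in the WT libraries and at 829.9, 1065 and 678 CPM in the KO libraries. Every KO library stood above every WT library. In the edgeR test, the log2 fold change came to 1.20 (SE 0.16, adjusted p = 0.00715). Of the 10482 genes tested in IC, 0.525% passed the same threshold, and of the 2 members tested there 1 did. The call was lost with the replicate number as a block (1.18, edgeR adjusted p = 0.0595), in the 4 libraries without *Xist* (1.16, edgeR adjusted p = 0.0526), without WT replicate 3 (1.22, edgeR adjusted p = 0.0554) and with at most 30% mitochondrial UMIs (1.02, edgeR adjusted p = 0.463), where the IC class held 500 cells in place of 2758.

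The IC class held 3 clusters whose shares differed between libraries. Cluster 22 was led by *Slc4a1*, *Aqp6* and *Kit*, genes of acid-secreting type A cells, and clusters 1 and 24 by *Slc26a4* and *Insrr*, genes of base-secreting type B cells. Cluster 22 made up 16.2%, 14.7% and 17.5% of IC in WT and 31.8%, 33.4% and 15.9% in KO. Cluster 1, the shallowest with a median of 1198 UMIs, made up 66.7%, 70.6% and 61.8% in WT and 40.4%, 31.8% and 63.7% in KO. The two-sided exact permutation test of these shares of cells gave p = 0.3 for cluster 22 and p = 0.2 for cluster 1. By share of the UMIs of IC, which is what the class sums weigh, cluster 1 gave 45.3%, 49.7% and 42.3% in WT and 22.03%, 16.6% and 41.4% in KO, and cluster 24 gave 30.8%, 27.1% and 34.2% in WT and 41.8%, 46.6% and 36.1% in KO. The genotypes did not overlap in either of these UMI shares (two-sided exact permutation p = 0.1 for both, the smallest possible), while for cluster 22 they did (p = 0.4, exact permutation). The part of these shares in the *Mme* level of the whole class was not tested.

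Within each of these clusters the KO libraries were again above the WT libraries. In cluster 22, where *Mme* was highest, the WT libraries were at 1275, 1172 and 1356 CPM and the KO libraries at 1795, 1908 and 1838 CPM (log2 fold change 0.57, SE 0.12, edgeR adjusted p = 0.0360). In cluster 1 the values were 84.2, 64.5 and 92.2 CPM against 186, 251 and 176 CPM (1.36, SE 0.18, edgeR adjusted p = 6.4e-04). All 3 WT values of cluster 1 lay below the free RNA level of their own library, at 107, 98.6 and 97.3 CPM, and free RNA was itself higher in the KO libraries, at 139.5, 136 and 119 CPM. In cluster 24 they were 257, 132 and 79.5 CPM against 335, 690 and 531 CPM (1.77, SE 0.36, edgeR adjusted p = 0.130). The share of all genes called was 0.696% in cluster 22, 0.742% in cluster 1 and 0.0369% in cluster 24. These clusters were tested singly only after the result for the class was known.

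Other genes of type A cells did not rise with *Mme*. In cluster 22, *Kit* was at 379, 355 and 370 CPM in the WT libraries and 216, 230.1 and 215 CPM in the KO libraries, and *Slc4a1*, the chloride-bicarbonate exchanger, at 1184, 1097 and 1139 CPM against 674, 957 and 709 CPM. Both were lower in every KO library than in every WT library. Markers of principal cells (7 genes, all above 0) summed to 2330 to 3286 CPM in WT and 1115 to 2027 CPM in KO cells of the IC class, and their part in the result was not tested.

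The change of *Mme* in IC differed from that in 2 other classes with *Mme*. In podocytes, *Mme* was at 600, 511 and 555 CPM in the WT libraries and 682, 655 and 549 CPM in the KO libraries, which overlapped (log2 fold change 0.16, SE 0.11, edgeR adjusted p = 0.463). In LOH, the WT libraries were at 187, 165 and 151 CPM and the KO libraries at 160.5, 172 and 169.9 CPM, which overlapped too. The class by genotype term, with the mouse as a block, was 1.04 for IC against podocytes (SE 0.16, edgeR adjusted p = 0.00643) and 1.18 for IC against LOH (SE 0.15, edgeR adjusted p = 0.00102). Of all genes, 0.629% and 1.02% passed in these tests. Both terms stayed past the threshold without any 1 library, without the *Xist* libraries and without doublet removal.

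In unnamed 15, whose cells shared *Aqp6*, *Slc4a1* and *Kit* with cluster 22, *Mme* was at 559, 410 and 528 CPM in the WT libraries and 853, 823 and 680 CPM in the KO libraries. The groups did not overlap, but the test missed the threshold (log2 fold change 0.61, SE 0.15, edgeR adjusted p = 0.0855, with 0.506% of all genes called). These cells had a median of 20470 UMIs and *Aqp2* at 1666 to 4828 CPM beside the intercalated markers, so whether they were mixtures of cells was not tested.

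**Figure D3:**
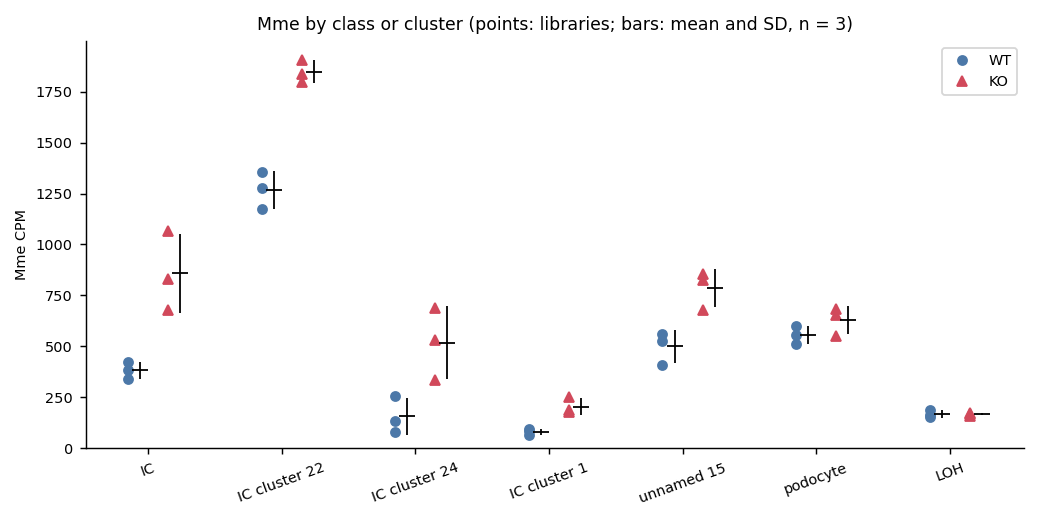
*Mme* CPM in IC, in the 3 IC clusters, in unnamed 15, podocytes and LOH; each circle (WT) or triangle (KO) is a library and bars give the mean and SD of 3. The KO libraries lie above the WT libraries in IC, in all 3 IC clusters and in unnamed 15, and mix with them in podocytes and LOH.

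Over all retained cells, *Mme* was at 228, 187 and 188 CPM in the WT libraries and 348, 358 and 253 CPM in the KO libraries, again without overlap. In the edgeR test, the log2 fold change came to 0.68 (SE 0.12, adjusted p = 0.0522), just outside the threshold, and 0.60 in the 4 libraries without *Xist* (edgeR adjusted p = 0.369). None of the 7 members tested over all cells passed by edgeR, with 1.07% of all genes called. At an unadjusted p under 0.05 there were 2 of them, *Mme* and *Agtr1a* (log2 fold change -0.75, SE 0.25, edgeR adjusted p = 0.218), and DESeq2 called 1, *Mme*. These sums also move with the shares of the classes.

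*Atp6ap2*, the (pro)renin receptor gene, was found in all classes at 121 CPM or more on average, with 43.7% of its 60029 UMIs in IC. IC, whose surface carries many proton pumps, was at 927 ± 87.9 CPM (SD, n = 6), unnamed 15 at 607 ± 84.3 CPM, principal cells (PC) at 506 ± 45.5 CPM and macrophages at 504 ± 67.2 CPM. IC stood above unnamed 15, and unnamed 15 above PC, in 6 of 6 mice, while PC and macrophages did not differ in a steady direction (3 of 6 mice). The other classes were between 121 and 293 CPM, and free RNA held 148 to 209 CPM, so the levels of podocytes, stromal, endothelial, LOH, DCT and PCT cells lay at or below it.

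In the connecting tubule (CNT), *Atp6ap2* was at 246, 190.1 and 230.0 CPM in the WT libraries and 332, 343 and 278 CPM in the KO libraries. All KO libraries were above all WT libraries. The test missed the threshold (log2 fold change 0.49, SE 0.13, edgeR adjusted p = 0.0665, with 2.92% of all genes called). It passed in 3 of 25 fits, among them DESeq2 (adjusted p = 0.0257) and a block for the *Xist* libraries (edgeR adjusted p = 0.0226). It missed whenever 1 library was left out (edgeR adjusted p = 0.0802 to 0.242). In cluster 3 of the class, tested after the data were seen, it passed (0.54, edgeR adjusted p = 0.0327, with 2.14% of all genes called there). In IC, where the gene was highest, KO and WT overlapped (log2 fold change 0.12, SE 0.12, edgeR adjusted p = 0.794).

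In all, 35 tests of 6 members were made over the 14 classes, and 1 passed, *Mme* in IC. *Agt* and *Agtr1b* had too few UMIs for any class. The share of all genes called was 1.24% in DCT, 0.0233% in DLH, 0.183% in endothelial cells, 4.16% in LOH, 0.353% in macrophages, 1.04% in macula densa, 2.31% in PC, 0.0323% in PCT, 1.93% in podocytes, 0.0538% in stromal cells and 0.0253% in T and NK cells, and no member was called in these classes. *Mme* had the widest spread of changes over the 11 classes in which it was tested, from -0.75 in endothelial cells to 1.20 in IC on the log2 scale. The endothelial value (edgeR adjusted p = 0.565) rests on 80 UMIs, at 9.49 CPM against 97.3 to 139.5 CPM of free RNA.

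**Figure D4:**
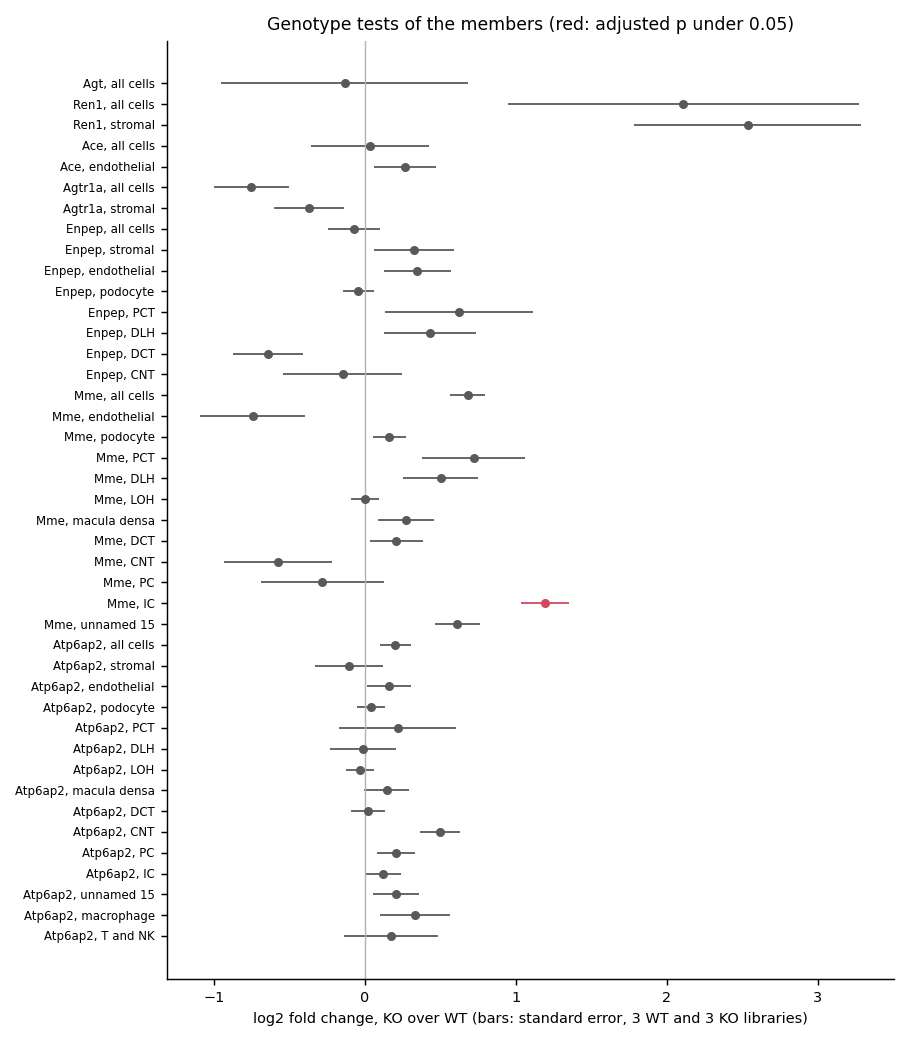
Log2 fold change, KO over WT, of each member in each class where it was tested, with its standard error (edgeR, 3 WT and 3 KO libraries). The red point, *Mme* in IC at 1.20, is the test that passed, and *Ren1* in stromal cells at 2.54 has the largest change and one of the largest errors (0.75).

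Genes whose levels followed those of a member over the 14 classes were taken by Pearson's r of the log2 mean level, given as a description since 14 classes of the same libraries are not independent. *Atp6ap2* was followed by *Snx2* (0.84) and *Atp6v0c* (0.84), the latter a subunit of the proton pump, and *Enpep* by *Wt1* (0.95), a podocyte transcription factor. *Agtr1a* was followed by *Cspg4* (0.98) and *Pde5a* (0.95), *Ren1* by *Rgs4* and *Pdgfra* (0.99 each), *Ace* by *Tmem26* (0.89) and *Mme* by *Fa2h* (0.86). *Agt* was followed by *1700016C15Rik* (1.00) and *Gc* (0.99), and *Agtr1b* by *Susd5* (1.00), although both rest on few UMIs.

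A further 4 lists of the pathway were tested in the same fits. Among 16 genes of angiotensin peptide processing and receptors, which include *Agtr2*, *Anpep* and *Agtrap*, none passed in any of 81 tests over the 14 classes. In IC the median log2 fold change of the 8 tested was -0.01, against -0.00 over all genes. Of 12 genes of AT1 receptor signaling, 2 of 106 tests passed, in CNT and DCT, where 2.92% and 1.24% of all genes did. *Prkca*, a protein kinase C, fell by 1.05 on the log2 scale in CNT (edgeR adjusted p = 0.0384), and *Rgs2*, a regulator that ends G protein signals, rose by 1.04 in DCT (edgeR adjusted p = 0.0425). The calls depended on the processing. *Prkca* passed in 9 of 25 fits, with a change of 0.31 without the mitochondrial limit, and *Rgs2* in 12 of 25, and each was lost without doublet removal (edgeR adjusted p = 0.0516 and 0.0948). In CNT the median log2 fold change of the 10 tested was -0.11, against 0.00 over all genes.

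The kallikrein-kinin list, whose peptides ACE and neprilysin degrade, had 4 of 29 tests called, all lower in KO, of which 3 were of the same gene, *Kng2*. The share of all genes called was 2.31% in PC, 2.92% in CNT and 0.506% in unnamed 15. *Kng2*, a kininogen gene, fell in PC, where the WT libraries were at 74.0, 90.8 and 68.0 CPM and the KO libraries at 16.6, 15.6 and 16.6 CPM (a log2 fold change of -2.22, with an edgeR adjusted p = 6.8e-05). It fell by 1.41 in CNT (edgeR adjusted p = 9.2e-05) and by 1.61 in unnamed 15 (edgeR adjusted p = 0.00213) on the log2 scale. The mean level of *Kng2* was highest in LOH (1368 CPM in WT and 1152 CPM in KO). DCT came next (1120 and 969 CPM), while PC averaged 46.9 CPM. No gene of the list was called in LOH or DCT. *Kng1* and *Kng2* are close copies, and the split of reads between them is uncertain. All 25 fits in PC and in CNT and all 14 in unnamed 15 passed for *Kng2*. *Klk1*, the kidney kallikrein, fell by 1.09 on the log2 scale in unnamed 15 (edgeR adjusted p = 0.0234), and its call was lost in 4 of 13 alternatives, such as without WT replicate 2 (-0.75, edgeR adjusted p = 0.0545). The 2 list genes tested in PC had a median log2 fold change of -1.78, against 0.00 over all genes.

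Of 19 genes that control renin cells, 3 of 124 tests over classes passed, in PC and LOH, where 2.31% and 4.16% of all genes did. *Adora1*, the adenosine A1 receptor, was at 15.7, 14.5 and 9.83 CPM in the WT libraries and 243, 189 and 118 CPM in the KO libraries in PC (log2 fold change 3.79, SE 0.25, edgeR adjusted p = 1.5e-05). *Vdr*, the vitamin D receptor, fell in the same class by 0.93 on the log2 scale (edgeR adjusted p = 0.0154), but was at 0.00 without the mitochondrial limit (edgeR adjusted p = 0.999), and leaving out any of 4 libraries (replicates 2 and 3 of each genotype) also lost the call (edgeR adjusted p = 0.0544 to 0.0664). *Ptges*, a prostaglandin E synthase, rose by 1.68 in LOH (edgeR adjusted p = 0.00179), from 2.22, 2.60 and 2.64 CPM to 9.80, 7.21 and 7.50 CPM. LOH held little of it, with a mean of 5.33 CPM against 240 CPM in CNT and 215 CPM in PC. Its WT and KO means were 247 and 233 CPM in CNT and 222 and 207 CPM in PC. In the macula densa they were 31.7 and 63.2 CPM, and over all cells 79.1 and 58.6 CPM. *Adora1* in PC and *Ptges* in LOH passed in every fit made. Over all cells *Adora1* was higher in KO by 2.19 (edgeR adjusted p = 0.00641). That call was lost in the 4 libraries without *Xist* (2.09, edgeR adjusted p = 0.0998) and, without doublet removal, when WT replicate 2 (2.17, edgeR adjusted p = 0.09996) or WT replicate 3 (2.03, edgeR adjusted p = 0.0793) was left out. None of the list passed in stromal cells, where renin is made, or in the macula densa.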

How the data were processed

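Single cells of renal cortex from 3 WT and 3 *Prdm16* KO mice were sequenced on the BD Rhapsody platform. The deposited files hold raw counts of UMIs for each barcode and gene, which the authors made with the BD pipeline on mm10 with a GENCODE annotation and, per the labels, Scanpy 1.8. All barcodes were deposited, 96382945 to 121198131 UMIs a library. Barcodes with 500 to 60000 UMIs, 200 to 8000 genes and at most 50% mitochondrial UMIs were kept. Scrublet's automatic threshold marked 0.0747% to 0.457% of cells, under the 0.5% at which it was taken to work, so the 6% of highest score were removed in each library. Scanpy 1.11.5 clustered the cells (1995 variable genes without the members and related genes, 30 components, 15 neighbours, Leiden resolution 1), and clusters were named by marker genes. The members and lists were chosen with earlier results of these data known.

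UMI counts were summed per library and class and tested with edgeR 4.0.16 (TMM, filterByExpr with a minimum count of 10, quasi-likelihood test), Benjamini-Hochberg over all genes of a class, at 0.05. DESeq2 1.42.0 was an alternative. Single values were compared by exact permutation. All 8 members were described in each class where they were tested; a list gene was named where its adjusted p was under 0.05, at most 5 per list and class; for likeness, the 5 genes of highest r among those with at least 50 CPM in some class were taken and 1 or 2 named. *Ace* in cluster 10, the IC clusters and the markers beside them were chosen after their values were seen. On simulated counts, the fit recovered 93% of 200 genes changed by 1 on the log2 scale in IC (10502 genes) and 72% in the stromal class (5577 genes). Of the calls, 7% were false in IC and 5.26% in the stromal class. The simulation gave all genes the same spread between libraries and changed only genes with at least 200 UMIs. It thus does not cover genes as variable between libraries as *Ren1* in stromal cells. Gene positions are from GENCODE for GRCm38. Each mouse gave 1 library, so p-values cover the spread between 3 mice.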

Additional observations from a re-analysis of the deposited data

Results flagged for a closer look

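The change of *Mme* between KO and WT differed between cell classes by the test of the difference itself. It was larger in IC than in podocytes by 1.04 on the log2 scale (SE 0.16, edgeR adjusted p = 0.00643) and larger in IC than in LOH by 1.18 (SE 0.15, edgeR adjusted p = 0.00102).

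Barcodes with 20 to 100 UMIs, which entered no test, held *Mme* at 107, 98.6 and 97.3 CPM in the WT libraries and 139.5, 136 and 119 CPM in the KO libraries. The KO mean was 132 ± 11.1 CPM (SD, n = 3; against WT, two-sided exact permutation p = 0.1, the smallest possible), and every KO library was above every WT library. The other 7 members overlapped between the groups in these barcodes or were not found in them.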

How the results depend on the processing

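With 3 libraries a group and 11 to 222 PCT cells or 69 to 199 stromal cells a library, small changes of rare genes were not detectable at this depth. In the classes, 1 member test was called as reported; 3 were with DESeq2, 6 without the filter on low counts, 0 with the replicate block, 3 with the block for *Xist*, 0 at 30% mitochondrial UMIs, 2 without that limit, 2 without doublet removal, also with the *Xist* block, and 0 to 2 when 1 library was left out (2 at most without doublet removal). Over all cells, 0 were called as reported and 1 with DESeq2, without the filter, with the replicate block, with the *Xist* block and without KO replicate 3 (0 to 1 over the libraries left out). The unfiltered fit added *Ren1* in stromal cells and podocytes, *Ace* in macrophages, *Atp6ap2* in CNT and *Mme* in unnamed 15, and the cause was not tested. The replicate numbers were not taken to pair the mice, since same-numbered libraries deviated together with r = 0.10, -0.10 and 0.36; the block changed only the calls of *Mme*. The difference in the share of *Ren1*-high cells ran from 0.00646 to 0.292 percentage points when 1 library was left out, and from 0.902 to 1.14 and 1.02 to 1.34 for *Mme* in IC against podocytes and LOH.

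Levels moved by more than their SD in these settings. Stromal *Ren1* went from 823 to 3245 CPM without doublet removal. Over UMIs of nuclear genes, *Ace* in endothelial cells was 42.2, *Enpep* in podocytes 2984, *Mme* in IC 972 and *Atp6ap2* in IC 1447 CPM, and without the mitochondrial limit *Atp6ap2* in IC was 712 CPM. Mean free RNA levels were 2.38 for *Ace*, 7.58 for *Agtr1a*, 98.4 for *Enpep*, 116 for *Mme* and 183 CPM for *Atp6ap2*. Settings with both *Xist* and doublet changes, single clusters and nuclear UMIs were added after seeing the data. Changes of sign were 0.0338 for *Enpep* in podocytes without WT replicate 1 (-0.0892 without WT replicate 2, and 0.0425 without doublet removal and WT replicate 1), -0.0327 for *Atp6ap2* in IC at 30% mitochondrial UMIs, and 0.31 for *Prkca* in CNT and 0.0014 for *Vdr* in PC without the mitochondrial limit; none of these tests passed, and the cause was not tested. The other 19 results followed kept their sign. Settings that left the same cells and classes, such as Scrublet's automatic threshold with its fallback to the top 6%, gave the same values as reported and are not counted among the fits.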
